A study of Gallus gallus with 12 samples.

Results

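The genes described here are those of the transforming growth factor beta (TGF-beta) pathway that were named for study in the gut wall of the chick: the ligands TGFB2 and TGFB3, the latency protein LTBP1, the receptors TGFBR1, TGFBR2 and TGFBR3, the signal transducers SMAD2 and SMAD3, and the matrix protein TGFBI. They were chosen by symbol, and 8 of the 9 symbols occur among the 17138 genes of the deposited count table. The symbol SMAD2 does not occur. The table lists SMAD2Z, which the RefSeq gene table of the assembly GRCg7b gives as a synonym of SMAD2 on chromosome Z, and its counts are given beside those of the 8 members.

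TGF-beta ligands are secreted as latent complexes, in which the mature dimer stays bound to its own propeptide, and in mammals LTBP1 links that complex covalently and anchors it to fibrillin-rich matrix until integrins or proteases release the ligand. The free ligand is brought together with the type II receptor TGFBR2 and the type I kinase TGFBR1, with TGFBR3 (betaglycan) acting as a co-receptor that presents TGF-beta 2 in particular. TGFBR1 phosphorylates SMAD2 and SMAD3, which enter the nucleus with SMAD4. In the gut wall the pathway is known for its part in the growth of smooth muscle and in the deposition of matrix by fibroblasts.

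The samples were 12 pieces of intestinal mesoderm from chick embryos at embryonic day 14, 4 in each of 3 groups. All embryos had been electroporated at Hamburger-Hamilton stage 17 (HH17) with RCAS, an avian retroviral vector that spreads between cells. The midgut group and the hindgut group carried RCAS-mGFP, which encodes a green fluorescent protein and serves as the control vector, and the third group was midgut that carried RCAS-Hoxd13, which encodes the posterior patterning factor Hoxd13. The protocol in the labels places the electroporation in lateral plate mesoderm at the level of the midgut, and neither the share of cells that carried a vector nor its presence in the hindgut samples was examined here. In Light-seq, RNA is reverse-transcribed inside tissue sections and the cDNA of hand-drawn regions is barcoded with light. Each library therefore held 3 layers of the same sample. These were mesenchyme below the epithelium, longitudinal muscle of the inner wall, and circumferential muscle on its inner superficial side. The labels do not say whether the 4 samples of a group came from separate embryos, so the p-values measure the spread between these samples.

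Counts per column ranged from 210803 to 903222 in the mesenchyme, from 11233 to 49535 in the longitudinal muscle and from 19920 to 112252 in the circumferential muscle. HOXD13 had 0 counts in the mesenchyme of every midgut sample, 155 to 238 counts in the Hoxd13 midgut samples and 1 to 8 counts in the hindgut samples. The groups also differed in genes of chromosome W, which only female birds carry: 3 W-linked genes summed to 0 to 3.26 CPM, the count scaled to a common library size, in the mesenchyme of the midgut group, 122 to 162 CPM in the Hoxd13 midgut group and 37.6 to 156 CPM in the hindgut group. Mitochondrially encoded genes took 36.0% to 39.0%, 40.7% to 42.7% and 27.5% to 35.6% of the mesenchymal counts in these 3 groups. Hindgut replicate 1, the deepest library, stood apart from the other hindgut samples in its mesenchyme, with 10 epithelial markers, all detected, summing to 3327 CPM against 860.3 to 1064 CPM. In the midgut group they summed to 2285 to 3370 CPM and in the Hoxd13 midgut group to 2182 to 2519 CPM. Mesothelial markers, of which MSLN was at 0 in midgut and Hoxd13 midgut, summed to 1031 to 1582, 981.5 to 1265 and 466.5 to 1551 CPM, highest in the hindgut in replicate 1. The summed level of markers of enteric neurons and glia ranged from 345 to 391 CPM in midgut and from 238 to 297 CPM in Hoxd13 midgut. In hindgut it was 247 to 430 CPM. All sums of marker and W-linked genes are CPM of the column totals. On that scale all Hoxd13 midgut samples were below all midgut samples for the neural markers. This order does not hold with the scaling used for the mesenchymal levels of members below. Markers of interstitial cells of Cajal summed to 116 to 226 CPM and those of immune cells to 49.4 to 143 CPM over all mesenchymal samples. The part of the sex-linked, mitochondrial, epithelial, mesothelial and neural differences in the results below was not tested.

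In the mesenchyme, 7 of the 8 members passed the filter on low counts, and TGFBR1 did not. Between hindgut and midgut 1 of these 7 rose, LTBP1, where 62 of all 4176 genes tested passed (1.48%). Between Hoxd13 midgut and midgut 0 of the 7 passed by edgeR or by DESeq2, where 111 genes did by edgeR (2.66%), and 1 of the 7, SMAD3, had an unadjusted p under 0.05. Between hindgut and Hoxd13 midgut LTBP1 was again the member that passed, where 158 genes did (3.78%). A gene passed when edgeR's quasi-likelihood test gave it a Benjamini-Hochberg adjusted p under 0.05 over all genes tested. The 3 comparisons share samples and are not independent of each other. The median log2 change of the 7 members was 0.16, -0.03 and 0.18 in these 3 comparisons, beside medians of -0.00, 0.01 and 0.01 over all genes.

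**Figure D1:**
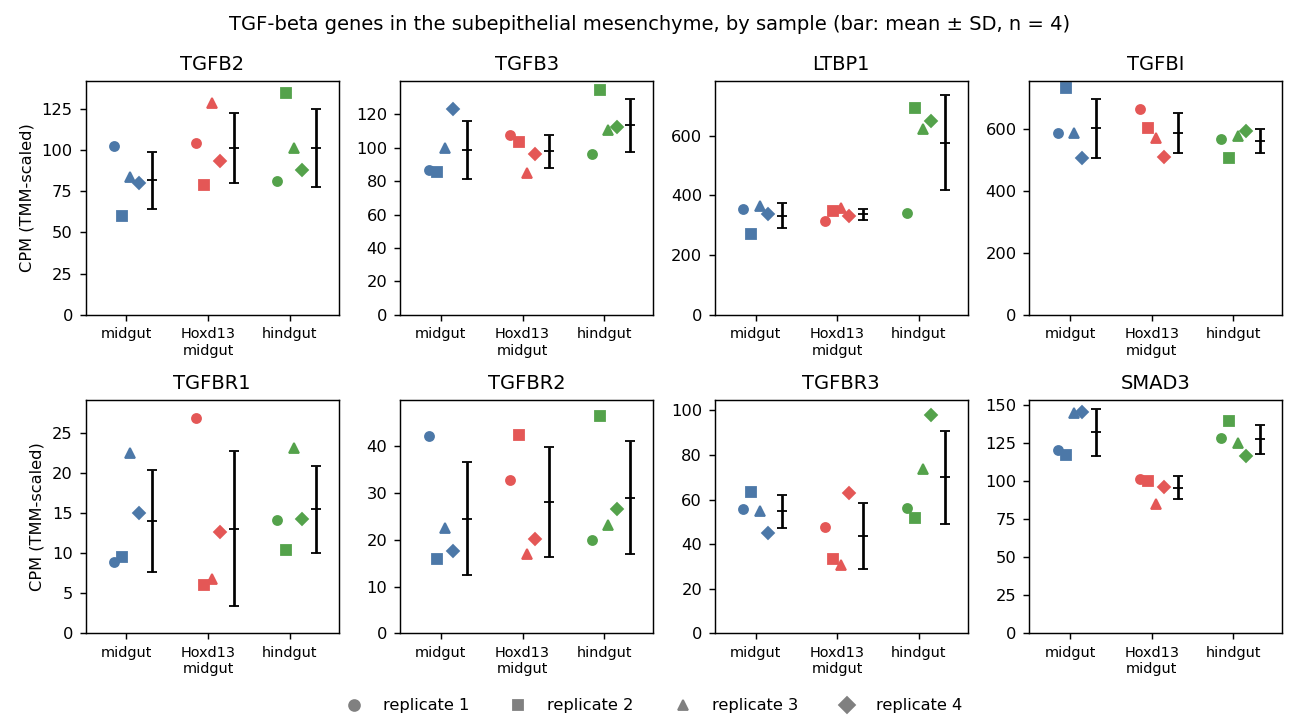
Level of the 8 members in the subepithelial mesenchyme, in CPM scaled by the trimmed mean of M-values (TMM), for each of the 12 samples, with the mean and SD of each group beside its 4 points. For LTBP1, 3 hindgut samples lie between 623 and 693 CPM, above all midgut and Hoxd13 midgut samples, and hindgut replicate 1 lies at 341 CPM.

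The ligands were described first. TGFB2, on chromosome 3 of GRCg7b, encodes the ligand that depends most on the co-receptor TGFBR3. Its mesenchymal level in midgut replicates 1 to 4 was 102, 60.1, 83.6 and 80.3 CPM, from 46, 19, 26 and 32 counts. The Hoxd13 midgut replicates had 104, 78.9, 129 and 93.4 CPM. The hindgut replicates had 81.3, 134.5, 101.5 and 87.8 CPM. The groups overlapped in all 3 comparisons, with means of 81.6 ± 17.3, 101 ± 21.1 and 101 ± 23.7 CPM (SD, n = 4). The fitted log2 change was 0.21 ± 0.21 (SE) for hindgut against midgut and 0.27 ± 0.21 for Hoxd13 midgut against midgut, with edgeR adjusted p of 0.754 and 0.536.

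TGFB3, on chromosome 5, encodes the other ligand of the set. Its level in midgut replicates 1 to 4 was 86.7, 85.4, 99.7 and 123 CPM. With Hoxd13 it was 107, 103, 84.8 and 95.9 CPM, and the hindgut replicates had 96.2, 134.5, 111 and 112 CPM. The hindgut values lay within or just above the midgut range, and the log2 change was 0.16 ± 0.24 with an edgeR adjusted p of 0.876. For Hoxd13 midgut against midgut the log2 change was -0.03 ± 0.18. TGFB1, which was not among the named members, had 51, 48 and 92 counts in the mesenchyme of the midgut, Hoxd13 midgut and hindgut groups, at 35.2 ± 15.5, 37.0 ± 20.1 and 45.8 ± 12.5 CPM (SD, n = 4).

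LTBP1, on chromosome 3, was the member whose mesenchymal level differed between the groups. Its level in midgut replicates 1 to 4 was 356, 272, 363 and 336 CPM, from 160, 86, 113 and 134 counts. In the Hoxd13 midgut it was 313, 346, 356 and 331 CPM, from 105, 114, 105 and 131 counts. In the hindgut it was 341, 693, 623 and 649 CPM, from 411, 134, 135 and 318 counts. Thus 3 of the 4 hindgut samples were above every midgut and every Hoxd13 midgut sample, and hindgut replicate 1 lay inside both of those ranges. The group means were 332 ± 41.4, 336 ± 18.8 and 576 ± 159.7 CPM (SD, n = 4).

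LTBP1 rose in hindgut against midgut by a log2 change of 0.76 ± 0.17 (edgeR adjusted p = 0.0257). It rose in hindgut against Hoxd13 midgut by 0.76 ± 0.17 (edgeR adjusted p = 0.0185). Its log2 change in Hoxd13 midgut against midgut was 0.00 ± 0.18 (edgeR adjusted p = 0.999). Without hindgut replicate 1 the change against midgut was 0.95 (edgeR adjusted p = 8.35e-09), and against Hoxd13 midgut 0.97 (adjusted p = 1.21e-08). In that fit 825 and 629 genes passed, against 62 and 158 with all samples, so the lower p was shared by many genes.

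The call against midgut was lost, with the log2 change between 0.67 and 0.80, in 7 of the 12 fits that left out a sample. These were the fits without hindgut replicate 2 (edgeR adjusted p = 0.115), 3 (0.0972) or 4 (0.0894), and without midgut replicate 1 (0.0583), 2 (0.108), 3 (0.0637) or 4 (0.0810). It was also lost in a fit of the midgut and hindgut samples alone (edgeR adjusted p = 0.150), while the change stayed at 0.77. Fewer genes passed in that fit than in the main fit, so the higher p was shared by many genes. The main fit takes 1 estimate of the spread of a gene from all 3 groups. The SD of LTBP1 was 41.4 CPM in midgut, 18.8 CPM in Hoxd13 midgut and 159.7 CPM in hindgut. The main p for hindgut against midgut thus also draws on the spread of Hoxd13 midgut, a group not compared there. How far the call rests on it was not tested further. The call against Hoxd13 midgut was lost in 5 of the 12 fits, those without hindgut replicate 2 (edgeR adjusted p = 0.0621) or 4 (0.0570) and those without Hoxd13 midgut replicate 1 (0.0589), 2 (0.0516) or 4 (0.0573).

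The summed level of smooth muscle markers in the mesenchyme was highest in the hindgut group, as was LTBP1, and single markers differed among themselves in Hoxd13 midgut. All 12 genes of the smooth muscle list were detected in the mesenchyme of each group, none was at 0, and 5 of them, ACTA2, ACTG2, MYH11, DES and MYOCD, encode proteins of the contractile and intermediate filaments and their transcriptional coactivator. The summed level of the list was 3981 to 6295 CPM of the column totals in midgut and 4991 to 5997 CPM in Hoxd13 midgut. Hindgut replicates 1 to 4 had 6588, 9013, 9398 and 12740 CPM. With TMM factors, 1.34 for hindgut replicate 1, the sum of that sample lies within the midgut range. In the circumferential muscle of all groups the sum was 8353 to 20660 CPM. In the longitudinal muscle it was 4932 to 9927 CPM, with means of 8550 CPM in midgut and 8023 CPM in hindgut. In the mesenchyme TAGLN had 361, 722 and 1054 CPM and ACTA2 219, 333 and 329.5 CPM in midgut, Hoxd13 midgut and hindgut (TMM-scaled means). In Hoxd13 midgut against midgut TAGLN passed (0.98, edgeR adjusted p = 0.0265), ACTA2 did not (0.58, 0.0788) and LTBP1 changed by 0.00. ACTG2 had 2451, 2556 and 4709 CPM and CNN1 94.1, 113 and 197 CPM in the same order of groups. Levels of the other listed markers are not given. The part of smooth muscle RNA in the LTBP1 difference was not tested. In such regions fewer cells of a type and less RNA per cell cannot be told apart. Fibroblast markers, 12 of 12 detected, summed to 15530 to 18230, 11780 to 14830 and 18880 to 22220 CPM in the mesenchyme of the 3 groups. These sums are on column totals, and with TMM factors the ranges of the groups overlap. Erythroid markers, of which HBBR was at 0 in midgut and Hoxd13 midgut, summed to 176 to 333, 113 to 159 and 424 to 755 CPM.

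The genes whose mesenchymal pattern was most like that of LTBP1 over the 12 samples were RGS5, a regulator of G protein signalling found in mural cells of mammalian vessels (r = 0.97), ACTG2, the enteric smooth muscle actin (r = 0.959), and ASPN, a small leucine-rich proteoglycan (r = 0.951). Pearson's r was taken on log2 CPM among 2091 genes with a mean of at least 20 counts, and is a description of samples that share libraries, depth and group. RGS5 had a mean level of 80.1 ± 16.2 CPM in midgut, 81.1 ± 3.92 CPM in Hoxd13 midgut and 218 ± 89.5 CPM in hindgut (SD, n = 4). ACTG2 had 2451 ± 523, 2556 ± 167 and 4709 ± 1614 CPM in the same order. The hindgut minimum of RGS5 was 87.9 CPM and that of ACTG2 was 2336 CPM.

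**Figure D2:**
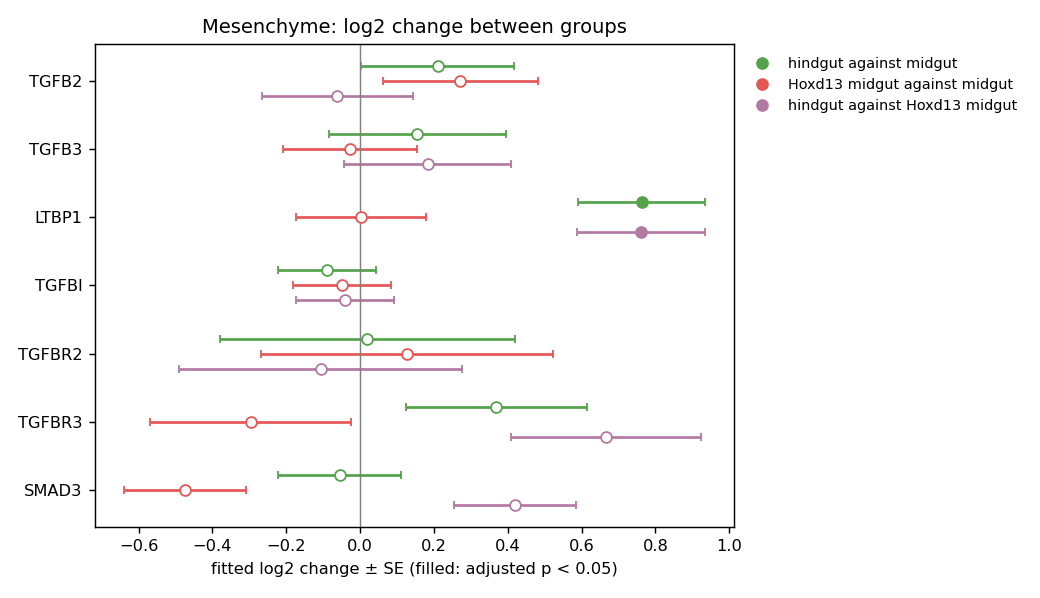
Fitted log2 change with its SE for the 7 members tested in the mesenchyme, with hindgut against midgut, Hoxd13 midgut against midgut and hindgut against Hoxd13 midgut in 3 colours. Filled points passed the threshold, and these are the values of 0.76 for LTBP1 in both hindgut comparisons.

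The receptors were counted at low depth. TGFBR3, the co-receptor on chromosome 8, had the highest counts of the 3. Its mesenchymal level in midgut replicates 1 to 4 was 55.6, 63.3, 54.7 and 45.2 CPM, from 25, 20, 17 and 18 counts, and in the Hoxd13 midgut 47.7, 33.4, 30.5 and 63.1 CPM. In the hindgut it was 56.4, 51.7, 73.8 and 98.0 CPM, from 68, 10, 16 and 48 counts. Hindgut replicates 3 and 4 were above all samples of the other groups, and the remaining values overlapped. The log2 change was 0.37 ± 0.24 for hindgut against midgut (edgeR adjusted p = 0.561), -0.30 ± 0.27 for Hoxd13 midgut against midgut (0.617) and 0.67 ± 0.26 for hindgut against Hoxd13 midgut (0.160). Without hindgut replicate 1 the last of these was 0.86 and passed (edgeR adjusted p = 0.0200), in a fit where 629 genes passed.

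TGFBR2, the type II receptor on chromosome 2, had 38, 38 and 51 counts in the mesenchyme of the midgut, Hoxd13 midgut and hindgut groups. Its level ranged from 15.8 to 42.2 CPM, from 17.0 to 42.5 CPM and from 19.9 to 46.5 CPM in these groups. These ranges nearly coincide, and the log2 change was 0.02 ± 0.40 for hindgut against midgut and 0.13 ± 0.40 for Hoxd13 midgut against midgut. The standard errors leave room for changes of the size seen in LTBP1. TGFBR1, the type I receptor kinase on chromosome 2, had 20, 18 and 31 counts and lay at 14.0 ± 6.32, 13.1 ± 9.63 and 15.5 ± 5.40 CPM (SD, n = 4). At 2 to 17 counts per sample it was left out of the fit by the filter.

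The SMADs transmit the signal to the nucleus. SMAD3, on chromosome 10, had a level of 120, 117, 145 and 145.5 CPM in midgut replicates 1 to 4, from 54, 37, 45 and 58 counts. In the Hoxd13 midgut it was 101, 100.1, 84.8 and 95.9 CPM, from 34, 33, 25 and 38 counts, and in the hindgut 128.5, 139.6, 125 and 116 CPM. All 4 Hoxd13 midgut samples were below all samples of the midgut and hindgut groups, while midgut and hindgut overlapped. The share of all genes tested that separate as fully was not computed, so the separation is a description only. The log2 change was -0.47 ± 0.17 for Hoxd13 midgut against midgut (edgeR adjusted p = 0.135) and 0.42 ± 0.17 for hindgut against Hoxd13 midgut (edgeR adjusted p = 0.171). Neither passed, and the adjusted p for Hoxd13 midgut against midgut was 0.0695 to 0.294 when a sample was left out. SMAD2Z had 22, 21 and 29 counts in the mesenchyme of the midgut, Hoxd13 midgut and hindgut groups, at 14.1 ± 6.00, 15.6 ± 9.82 and 12.3 ± 8.72 CPM (SD, n = 4), and 1 hindgut sample had 0 counts.

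TGFBI, on chromosome 13, encodes a secreted matrix protein named for its induction by TGF-beta in human cells. Its mesenchymal level was 585, 731, 585 and 504 CPM in midgut replicates 1 to 4, 665, 604, 569.6 and 507 CPM with Hoxd13, and 567, 507, 577 and 594 CPM in hindgut samples. The 3 groups covered nearly the same range, with means of 601 ± 94.4, 586 ± 65.8 and 561 ± 37.9 CPM (SD, n = 4). The log2 change was -0.09 ± 0.13, -0.05 ± 0.13 and -0.04 ± 0.13 in the 3 comparisons of groups, with edgeR adjusted p of 0.872, 0.900 and 0.914. These standard errors are the smallest among the 7 members tested.

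The other members were paired with their most similar genes in the same way, again over 12 samples and with no test. SMAD3 was most like MCM3, a subunit of the replicative helicase (r = 0.93). An unnamed gene listed as ENSGALG00000006818 (r = 0.887) and HDAC7, a class II histone deacetylase (r = 0.87), followed. TGFB2 was most like KIF1A, a kinesin motor (r = 0.849), and ANLN, the cytokinesis protein anillin (r = 0.783). TGFB3 was most like an unnamed gene listed as ENSGALG00000043416 (r = 0.922) and the nucleoporin gene NUP153 (r = 0.836). TGFBR3 was most like SERPINH1, the collagen chaperone (r = 0.836), and TRIO, a guanine nucleotide exchange factor (r = 0.83). TGFBI was most like the ribosomal protein gene RPL31 (r = 0.822).

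In the muscle layers the counts of most members were too low for the fit across genes. In the longitudinal muscle LTBP1 alone passed the filter. It had 8, 0, 11 and 5 counts in midgut replicates 1 to 4, 5, 9, 15 and 15 counts in the Hoxd13 midgut, and 23, 13, 13 and 24 counts in the hindgut. As CPM of the total counts these were 559, 0, 670 and 287 in midgut, 193, 396, 532 and 688 in Hoxd13 midgut, and 464, 996, 1157 and 1025 in hindgut. Again hindgut replicates 2, 3 and 4 were above all samples of the other groups and hindgut replicate 1 was inside their range. The log2 change was 1.20 ± 0.47 for hindgut against midgut (edgeR adjusted p = 0.213), where 2 of the 144 genes tested passed (1.39%). It was 0.57 ± 0.50 for Hoxd13 midgut against midgut, where 17 genes passed (11.8%), and 0.62 ± 0.43 for hindgut against Hoxd13 midgut, where 14 did (9.72%). LTBP1 passed in none of these 3. When a sample was left out its change against midgut was 0.66, without midgut replicate 2, to 1.60, with edgeR adjusted p up to 0.855. Of these 12 fits 1 passed, that without hindgut replicate 1 (1.57, edgeR adjusted p = 0.0494).

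In the circumferential muscle LTBP1 and TGFBI were tested. LTBP1 had 13, 19, 15 and 17 counts in midgut, 19, 18, 20 and 17 in Hoxd13 midgut, and 62, 24, 8 and 28 in hindgut replicates 1 to 4. Its level was 381 to 511, 285 to 450.3 and 402 to 597 CPM of the total counts, and 3 hindgut samples were above the highest of each other group. With the TMM factors applied to the column totals the ranges were 356 to 479, 345 to 490 and 372 to 662 CPM. The hindgut median was 488 CPM, so fewer hindgut samples stood above. The fit itself uses library sizes over the genes tested, and levels on that scale are not given. The log2 change was 0.19 ± 0.31 for hindgut against midgut, -0.19 ± 0.25 for Hoxd13 midgut against midgut and 0.38 ± 0.23 for hindgut against Hoxd13 midgut. For TGFBI the changes were -0.34 ± 0.28, -0.17 ± 0.27 and -0.17 ± 0.27. Neither member passed, where edgeR passed 0 of 349 genes (0%), 17 (4.87%) and 3 (0.860%) in these 3 comparisons. Between hindgut and midgut 37 genes had an unadjusted p under 0.05, and DESeq2 passed 2.

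The counts of both muscle layers were then summed for each sample, a choice made after the low counts had been seen. LTBP1 changed by 0.56 ± 0.23 for hindgut against midgut (edgeR adjusted p = 0.363), where 0 of the 579 genes tested passed (0%) and 54 had an unadjusted p under 0.05. It changed by 0.47 ± 0.22 for hindgut against Hoxd13 midgut (adjusted p = 0.338) and by 0.09 ± 0.24 for Hoxd13 midgut against midgut, where 8 genes (1.38%) and 20 genes (3.45%) passed. TGFBI passed in none of the 3. DESeq2 was not run on the summed layers.

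In a fit of all 36 columns, the difference between the hindgut effect in the mesenchyme and its mean in both muscle layers was -0.04 ± 0.28 on the log2 scale for LTBP1 and 0.09 ± 0.26 for TGFBI. Neither passed, where 3 of 614 genes did (0.489%). The same difference for the Hoxd13 effect was -0.25 ± 0.29 for LTBP1 and -0.21 ± 0.26 for TGFBI, where edgeR passed 0 genes (0%) and 49 had an unadjusted p under 0.05. This contrast takes the mean of muscle layers whose own fits gave LTBP1 changes of 1.20 ± 0.47 (longitudinal) and 0.19 ± 0.31 (circumferential). Whether the hindgut effect on LTBP1 differs between single layers was not tested.

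The remaining members had few counts in muscle. TGFB2 had 36 counts in the 12 longitudinal columns and 74 in the circumferential ones, TGFB3 had 12 and 44, TGFBR3 19 and 31, SMAD3 16 and 48, TGFBR2 3 and 13, and TGFBR1 8 and 5. TGFBR1 and TGFBR2 each had 0 counts in all 4 Hoxd13 midgut samples of the longitudinal muscle. In those columns 3 counts, the limit that a count of 0 allows, correspond to 106.5 to 137.6 CPM each and to 30.4 CPM for the 4 pooled. SMAD2Z had 3 and 9 counts. For the members and layers outside the filter, including TGFBR1 in the mesenchyme, 26 exact two-sided permutation tests between groups could be made, with 4 samples a group and a smallest possible p of 0.0286. None had a p under 0.05, the lowest exact permutation p was 0.143 and the lowest adjusted value was 0.943. After adjustment over 26 tests a single member at the smallest possible p could not have passed, so the adjusted values cannot exclude a difference. A further 16 pairs had under 10 counts and were not tested.

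The layers of the same samples were compared next, which asks where in the wall each member is transcribed. TGFBI fell in both muscle layers against the mesenchyme. Its level was 465 to 757 CPM of the total counts in the mesenchyme (median 591), 243.5 to 688 CPM in the longitudinal muscle (median 411) and 269 to 746 CPM in the circumferential muscle (median 392). It was below the mesenchyme of the same sample in 10 of 12 longitudinal and 11 of 12 circumferential columns. The log2 change was -0.48 ± 0.15 for longitudinal muscle (edgeR adjusted p = 0.0140), where 128 of 614 genes passed (20.8%), and -0.42 ± 0.12 for circumferential muscle (edgeR adjusted p = 0.00221), where 246 did (40.1%). With shares of this size, a call between layers is common among the genes tested. Without hindgut replicate 1 the longitudinal change was -0.44 and did not pass (edgeR adjusted p = 0.0695).

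LTBP1 did not pass in either layer comparison. Its level was 280 to 700.3 CPM in the mesenchyme (median 373), 0 to 1157 CPM in the longitudinal muscle (median 546) and 285 to 597 CPM in the circumferential muscle (median 462.5). It was above the mesenchyme of the same sample in 9 of 12 longitudinal and 8 of 12 circumferential columns, with log2 changes of 0.37 ± 0.17 and 0.26 ± 0.13 (edgeR adjusted p of 0.106 and 0.0963). It passed for longitudinal muscle without midgut replicate 2 (0.46, edgeR adjusted p = 0.0353) and for circumferential muscle without midgut replicate 3 (0.33, edgeR adjusted p = 0.0450). Between longitudinal and circumferential muscle, where 36 genes passed (5.86%), the change was 0.11 ± 0.19 for LTBP1 and -0.07 ± 0.19 for TGFBI.

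These layer changes are relative to the genes that pass the filter. In a fit without the filter the median change of all genes was -0.61 for circumferential and -1.01 for longitudinal muscle, and TGFBI changed by -0.92 and -1.36. In that fit LTBP1 changed by -0.26 and -0.54, so that its direction turned, and the second of these passed (edgeR adjusted p = 0.0252). Both LTBP1 values lie above the median of all genes in the same fit.

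**Figure D3:**
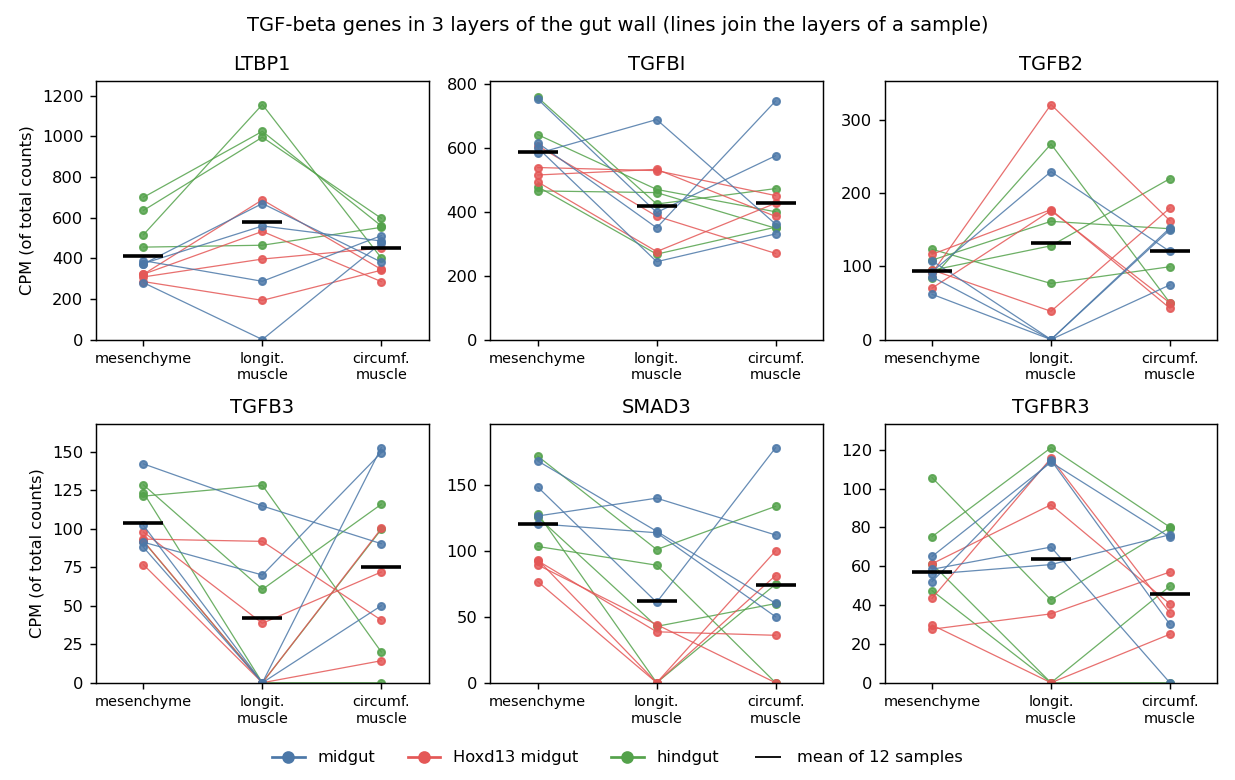
Level of 6 members in the 3 layers, in CPM of the total counts, with a line for each of the 12 samples coloured by group and a black bar at the mean of the 12 samples. TGFB3 is at 0 in 6 of the 12 longitudinal columns, and SMAD3 is below the mesenchyme of the same sample in 11 of them.

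For the members outside the filter of that fit, each muscle layer was compared with the mesenchyme by an exact paired permutation test, two-sided, which flips the sign of each sample's difference, wherever the muscle layer held at least 10 counts. These 9 tests were added after the counts had been seen and were adjusted over the 9. TGFB3 fell in the longitudinal muscle, from 104 ± 19.9 CPM to 42.0 ± 49.4 CPM (SD, n = 12), with 12 counts in all and 6 columns at 0. It was lower in 11 of 12 samples (exact p = 0.00146, adjusted p = 0.00659). In the circumferential muscle TGFB3 was at 75.3 ± 51.2 CPM and lower in 9 of 12 samples (exact p = 0.0737, adjusted p = 0.166).

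SMAD3 was lower in both muscle layers on CPM of the column totals, and its circumferential call depended on the scaling. It went from 120 ± 30.9 CPM in the mesenchyme to 62.0 ± 49.1 CPM in the longitudinal muscle, lower in 11 of 12 samples (exact p = 0.00146, adjusted p = 0.00659), and to 73.8 ± 52.1 CPM in the circumferential muscle, lower in 10 of 12 samples (exact p = 0.00732, adjusted p = 0.0220). On this scale the log2 ratio of the mean level in longitudinal muscle to that in mesenchyme was -0.95 for SMAD3 and -1.31 for TGFB3, beside a median of -0.10 over 2091 genes with a mean of at least 20 mesenchymal counts. For circumferential muscle it was -0.70 and -0.46, beside a median of -0.18. Of these genes 59.2% were below 0 in the longitudinal and 67.7% in the circumferential muscle. How far SMAD3 and TGFB3 differ from other genes was not tested, and the share of all genes that pass the same permutation test was not computed. TGFB2 did not pass: it was at 94.3 ± 17.9 CPM in the mesenchyme, 131 ± 110 CPM in the longitudinal muscle and 121 ± 57.6 CPM in the circumferential muscle (adjusted exact p of 0.349 and 0.292), and higher in 7 of 12 samples in each. TGFBR3 was at 57.0 ± 20.7, 63.8 ± 48.0 and 45.8 ± 29.0 CPM and did not pass. TGFBR2 could be tested in the circumferential muscle alone, at 27.0 ± 10.0 against 23.9 ± 21.7 CPM, and did not pass. With the TMM factors of the fit of all columns SMAD3 in the circumferential muscle no longer passed (exact p = 0.0269, adjusted p = 0.0806), and TGFB3 and SMAD3 in the longitudinal muscle did (adjusted exact p = 0.011). With totals without mitochondrial genes all 3 passed (adjusted exact p of 0.0154 and 0.0469). TGFB3 in the circumferential muscle passed without midgut replicate 1 (adjusted exact p = 0.0461).

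The share of TGFB2 among the counts of the 2 ligands is given as a description, since it was noticed in these counts. In the mesenchyme it was 47.3%, from 448 and 500 counts (Wilson 95% interval 44.1% to 50.4%). In the longitudinal muscle it was 75%, from 36 and 12 counts (61.2% to 85.1%), and in the circumferential muscle 62.7%, from 74 and 44 counts (53.7% to 70.9%). The intervals cover counting error only. Within samples the share in both muscle layers together was 67.2% ± 18.8 against 47.5% ± 5.72 in the mesenchyme (SD, n = 12), and it was higher in 11 of 12 samples. By group, the share in muscle and mesenchyme was 55% (39.8% to 69.3%) and 45.7% (39.9% to 51.7%) in midgut, where the intervals overlap. It was 74.1% (61.1% to 83.9%) and 50.6% (44.6% to 56.5%) in Hoxd13 midgut, and 66.7% (55.2% to 76.5%) and 46.1% (41.3% to 50.9%) in hindgut. The counts are not corrected for transcript length, so the share is comparable between layers but does not say which ligand has more transcripts.

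The rest of the pathway was described by lists of genes with known roles, chosen with earlier results of these data known. Of 23 genes of latency, storage and release of TGF-beta, 16 were in the table and 12 were tested in the mesenchyme. Between hindgut and midgut none of the 12 passed by edgeR, with a median of 0.11 and 6 of 12 above 0. The nearest were FBN3 (0.54 ± 0.14, edgeR adjusted p = 0.0534) and FBN2 (0.66 ± 0.21, 0.109), fibrillins of the kind that hold latent complexes, and LTBP2, a fibrillin-binding relative of LTBP1 (0.64 ± 0.21, 0.124). Next came THBS1, with a change in the other direction (-0.64 ± 0.21, edgeR adjusted p = 0.130). FBN3 had a mean of 568 ± 53.8 CPM in midgut, 581 ± 37.9 CPM in Hoxd13 midgut and 839 ± 170.6 CPM in hindgut (SD, n = 4). It rose in hindgut against Hoxd13 midgut (0.53 ± 0.14, edgeR adjusted p = 0.0405), a call kept in 1 of 12 fits without a sample, the fit without hindgut replicate 1 (0.67), and in 4 of 8 other settings.

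Between Hoxd13 midgut and midgut 1 of the 12 genes fell, HTRA3, a secreted serine protease that restrains TGF-beta signalling in mouse. Its level was 53.5 ± 6.25 CPM in midgut, 16.9 ± 8.81 CPM in Hoxd13 midgut and 22.8 ± 16.4 CPM in hindgut (SD, n = 4), and the log2 change was -1.72 ± 0.42 (edgeR adjusted p = 0.0310). The call rested on 80 counts in midgut and 22 in Hoxd13 midgut, where each sample had 3 to 8. It was kept in 6 of 12 fits without a sample, with a highest edgeR adjusted p of 0.129, and in 8 of 8 other settings. Near the threshold were DCN, the proteoglycan decorin, which binds TGF-beta (-0.57 ± 0.16, edgeR adjusted p = 0.0507), and MMP2, a gelatinase (-0.60 ± 0.17, 0.0595). The median of the 12 genes was -0.08 in that comparison and 0.49 between hindgut and Hoxd13 midgut, beside 0.01 over all genes in both.

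Of 25 other receptors, transducers and inhibitors, a list that also holds the ligand TGFB1, 22 were in the table and 12 were tested in the mesenchyme. None passed by edgeR in the 3 comparisons, with medians of -0.03, 0.00 and 0.09. Nearest to passing were ENG, the co-receptor endoglin of endothelium, with 0.95 ± 0.30 for hindgut against midgut (edgeR adjusted p = 0.115) and 0.97 ± 0.31 for hindgut against Hoxd13 midgut (0.0814), and TGIF1, a SMAD corepressor, with -0.88 ± 0.29 for Hoxd13 midgut against midgut (0.112). ENG had 50.5 ± 14.7, 51.1 ± 3.82 and 105 ± 47.5 CPM in midgut, Hoxd13 midgut and hindgut (SD, n = 4). Endothelial markers, 9 of 9 detected, summed to 156.5 to 178, 135 to 208.5 and 164 to 269 CPM in those groups, and their part in the ENG values was not tested. SMAD7B, on chromosome W, had 0 counts in the midgut group, 16 counts with Hoxd13 and 11 counts in hindgut, the order of the W-linked genes above. That sum was taken over the genes placed on chromosome W, SMAD7B among them, so the shared order is in part the gene compared with itself. Of 12 genes of the activin arm, which also signals through SMAD2 and SMAD3, 9 were in the table, 3 were tested and none passed by edgeR. The nearest was FSTL1, a follistatin-like glycoprotein (0.51 ± 0.14 for hindgut against midgut, edgeR adjusted p = 0.0710).

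Of 24 genes known to respond to TGF-beta in fibroblasts of mammals, 19 were in the table and all 19 were tested in the mesenchyme. Between hindgut and midgut 3 of the 19 rose and 0 fell, where 1.48% of all genes passed, with a median of 0.40 beside -0.00 over all genes. These were THBS2, a matricellular thrombospondin (2.13 ± 0.37, edgeR adjusted p = 0.00354), VCAN, the proteoglycan versican (1.72 ± 0.34, 0.0104), and TAGLN, the actin-binding transgelin (1.51 ± 0.23, 0.00137). TAGLN had 361 ± 66.7 CPM in midgut, 722 ± 33.2 CPM in Hoxd13 midgut and 1054 ± 425.7 CPM in hindgut (SD, n = 4). THBS2 and TAGLN passed in all 12 fits without a sample and VCAN in 10, and each passed in 7 of 8 other settings. None of these 3 passed in a fit of the midgut and hindgut samples alone. There the edgeR adjusted p was 0.0578, 0.0870 and 0.0508 in the order named, and fewer genes passed in all than in the main fit.

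Between Hoxd13 midgut and midgut 3 of the 19 rose and 3 fell, where 2.66% of all genes passed, with a median of 0.13. TAGLN (0.98 ± 0.23, edgeR adjusted p = 0.0265), TPM1, a tropomyosin (0.60 ± 0.16, 0.0431), and CYR61, a matricellular protein (1.47 ± 0.40, 0.04996), rose. LOX, the enzyme that crosslinks collagen and elastin (-0.76 ± 0.18, edgeR adjusted p = 0.0265), ELN, elastin itself (-0.89 ± 0.23, 0.0405), and POSTN, periostin (-0.77 ± 0.20, 0.0444), fell. LOX had 189 ± 20.8 CPM in midgut, 114 ± 25.1 CPM in Hoxd13 midgut and 152 ± 22.2 CPM in hindgut (SD, n = 4). These 6 calls were kept in 3 to 6 of 12 fits without a sample. Under 8 other settings the call of CYR61 was kept in 3 and lost with relative log expression size factors, total counts, DESeq2, library sizes over all genes and mitochondrial genes left out. That of TPM1 was kept in 5 and that of POSTN in 6, both lost with DESeq2 and with a replicate block, and those of LOX, ELN and TAGLN in 7.

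Between hindgut and Hoxd13 midgut 3 of the 19 rose, where 3.78% of all genes passed. These were POSTN (1.11 ± 0.20, edgeR adjusted p = 0.00416), SPARC, a collagen-binding glycoprotein (0.54 ± 0.13, 0.0270), and COL1A1, a chain of collagen I (0.63 ± 0.18, 0.0470). POSTN passed in all 12 fits without a sample, SPARC in 7 and COL1A1 in 1, the fit without hindgut replicate 1. Under the 8 other settings POSTN passed in 8, SPARC in 7 and COL1A1 in 5. Of the 19 genes TAGLN, ACTA2 and CNN1 are also on the list of smooth muscle markers. COL1A1, COL1A2 and COL3A1 are on that of fibroblast markers. The summed levels of both lists are given with LTBP1 above. On column totals the smooth muscle sums of midgut and Hoxd13 midgut overlapped, and those of all hindgut samples were higher. On that scale the fibroblast sums were lowest in Hoxd13 midgut. The part of these markers in the calls was not tested.

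**Figure D4:**
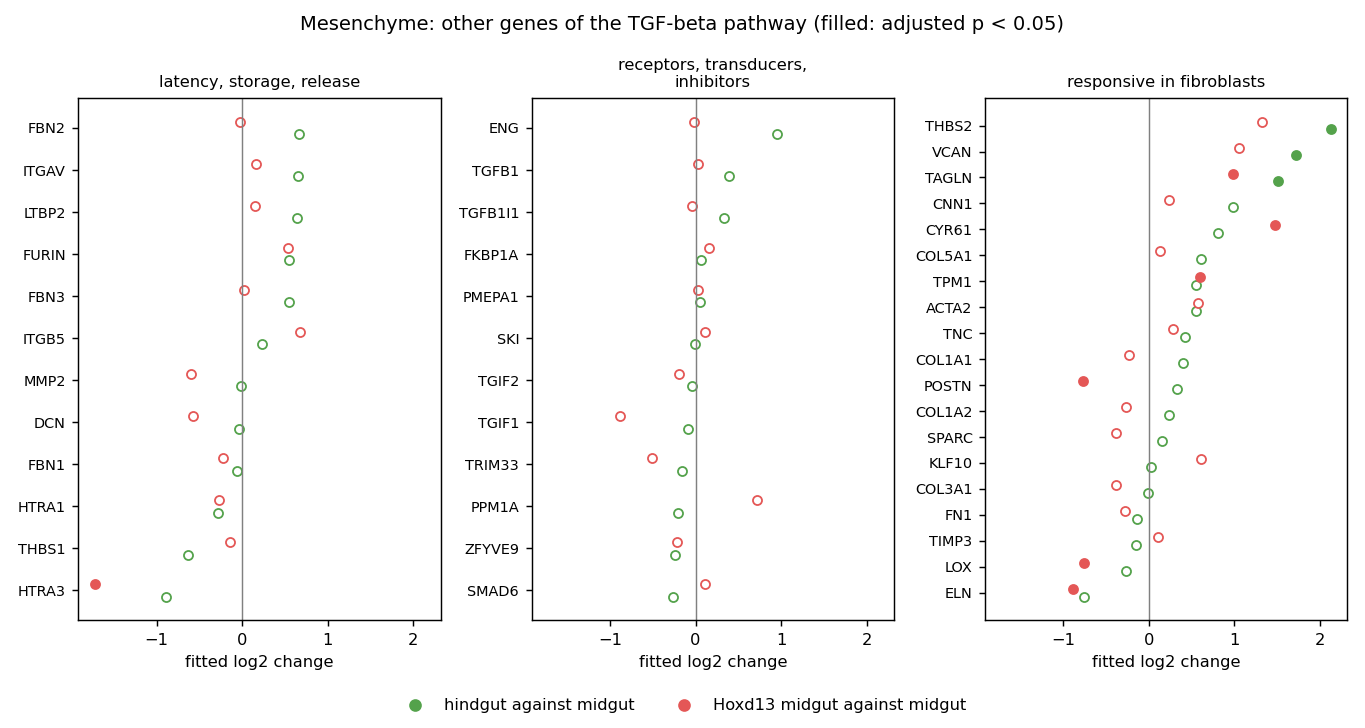
Fitted log2 change in the mesenchyme for the other genes of the pathway in 3 lists, with hindgut against midgut in green and Hoxd13 midgut against midgut in red, and filled points where the adjusted p was under 0.05. In the list of responsive genes THBS2, VCAN and TAGLN are filled for the hindgut, and HTRA3 is the filled point of the latency list.

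Against the mesenchyme, the shares of passing genes in the latency and responsive lists were near or below those of the 614 genes tested. In the circumferential muscle 2 of 6 latency genes and 5 of 15 responsive genes rose, where 40.1% of all genes passed, and in the longitudinal muscle 1 of 6 and 2 of 15 rose, where 20.8% did. None of these genes fell in either muscle layer against the mesenchyme by edgeR. Between longitudinal and circumferential muscle 1 of 15 responsive genes rose and 3 fell, where 5.86% of all genes passed. VCAN rose (1.21, edgeR adjusted p = 0.0206), a call kept in 4 of 7 fits without a sample. TAGLN (-0.97, edgeR adjusted p = 1.52e-08), CNN1 (-1.15, 0.00262) and TPM1 (-0.68, 0.0125) fell. Of 6 latency genes 0 passed there. FBN1, the fibrillin of mature microfibrils, rose by 0.58 ± 0.13 in the circumferential muscle (edgeR adjusted p = 0.000233) and by 0.47 ± 0.18 in the longitudinal muscle (0.0474), the latter kept in 1 of 12 fits without a sample. LTBP2 rose by 0.65 ± 0.15 in the circumferential muscle (edgeR adjusted p = 0.000328). FSTL1 of the activin list rose in both, by 0.38 ± 0.09 and 0.39 ± 0.10, in the fit with the filter.

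Among the responsive genes TAGLN rose by 1.20 ± 0.09 in the circumferential muscle and CNN1, a calponin of smooth muscle, by 1.33 ± 0.17, and ACTA2, TPM1 and SPARC also rose there. In the longitudinal muscle ACTA2 rose by 1.37 ± 0.14 and VCAN by 0.98 ± 0.27. Without the filter, where the medians of all genes were -0.61 and -1.01, the circumferential calls of TAGLN, ACTA2 and CNN1 were kept and those of FBN1, LTBP2, TPM1 and both longitudinal calls of ACTA2 and VCAN were lost. In that fit FSTL1 turned to -0.16 in the circumferential muscle and to -0.53 in the longitudinal muscle, where it passed as a fall (edgeR adjusted p = 0.00211), FBN1 turned to -0.41 in the longitudinal muscle and SPARC to -0.22 in the circumferential muscle.

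Within the longitudinal muscle 1 of 9 responsive genes fell in Hoxd13 midgut against midgut, where 11.8% of all genes passed. This was COL1A1 (-0.78, edgeR adjusted p = 0.0159), a call kept in 12 of 12 fits without a sample. In hindgut against Hoxd13 midgut 1 of 9 rose there, where 9.72% passed, again COL1A1 (0.70, edgeR adjusted p = 0.0371). That call was kept in 10 of 12 fits without a sample. In the circumferential muscle 1 of 11 fell in Hoxd13 midgut against midgut, where 4.87% passed. This was LOX (-1.59, edgeR adjusted p = 0.0418), a call kept in 2 of 12 fits without a sample. These calls were all lost without the filter. Fibroblast markers, COL1A1 among them, summed to 16990 to 21870 CPM in the longitudinal muscle of midgut. The sums were 9952 to 12750 CPM in Hoxd13 midgut and 16520 to 24130 CPM in hindgut, and their part in the COL1A1 calls was not tested.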

How the data were processed

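Light-seq libraries of 12 samples were deposited as 1 table of gene counts with 36 columns, 1 per sample and layer. The authors' counts are whole and unnormalized. The submitters' processing notes name UMI-tools, STAR, featureCounts, DESeq2, MultiQC and the build GRCg6a, with no versions or settings. The sources used here do not give whether a count is a read or a unique molecule. Chromosomes are those of RefSeq's GRCg7b gene table, and no coordinates are given because the builds differ.

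Members and gene lists were chosen with earlier results of these data known. Each layer was fitted with edgeR 4.0.16 in R 4.3.3 (quasi-likelihood, TMM factors, terms for the 3 groups, filterByExpr at its defaults of 10 for min.count and 15 for min.total.count, library sizes over the genes tested). Library sizes over all genes had been used first and were replaced after those calls had been seen. Layers were compared in 1 fit of all 36 columns with a term for each sample. P-values were adjusted by Benjamini-Hochberg over all genes tested, with a threshold of 0.05. Standard errors were derived from the test's p. Members outside the filter were compared by exact permutation on CPM where 10 counts were present. CPM of single genes in the mesenchyme by group use TMM factors. These factors were computed over the genes tested and applied to the column totals, so such CPM are not exactly on the scale of the fit. Summed CPM of marker lists and of W-linked genes, and CPM of the muscle layers and of layer comparisons, use the column totals. Beside the members, genes named are those of the pathway lists that passed or, where fewer than 3 did, that came nearest to passing, and the genes most correlated with a member. TGFB1, SMAD7B and THBS1 were named outside that rule, after their values had been seen.

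Column totals of 11233 to 903222 put 3 counts, the limit that a count of 0 allows, at 3.32 to 14.2 CPM in the mesenchyme, 60.6 to 267 CPM in the longitudinal and 26.7 to 151 CPM in the circumferential muscle. Intervals and limits cover counting error only. No 2 replicates agreed within sampling noise, with a chi-square per degree of freedom of at least 1.16 over 18 pairs a layer. Alternatives were DESeq2 1.42.0, other scalings and filters, and each sample left out. The fits were tested on simulated data. Figures were drawn with matplotlib 3.10.9, and permutation tests were run with numpy 2.4.6.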

Additional observations from a re-analysis of the deposited data

How the results depend on the processing

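In the muscle layers low depth left most members outside the fit, and among the samples left out hindgut replicate 1 moved the mesenchymal counts of calls most. The alternatives tried were DESeq2, relative log expression (RLE) size factors, total counts as the scaling, no filter on low counts, a fit of only the 2 groups compared, a replicate block, mitochondrial genes left out, library sizes over all genes and summed muscle layers, the last 2 chosen after seeing the data. Under an alternative, 830 member values kept their direction and their side of the threshold, 56 changed sign, 15 lost a call and 5 gained one. The cause of these shifts was not tested, except that a filter or a layer sum changes the genes or counts tested.

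Genes passing in the mesenchyme numbered 14 to 825 for hindgut against midgut, 37 to 317 for Hoxd13 midgut against midgut and 58 to 629 for hindgut against Hoxd13 midgut when a sample was left out, with the highest number of each without hindgut replicate 1. DESeq2 gave 66 for Hoxd13 midgut against midgut and 76 for hindgut against Hoxd13 midgut. Without the filter 231 passed for hindgut against midgut and 172 for Hoxd13 midgut against midgut. With only the 2 groups compared the numbers were 2, 365 and 71.

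In the longitudinal muscle the same ranges were 0 to 12, 6 to 25 and 4 to 16. For hindgut against midgut 1 gene passed by DESeq2, RLE, total counts or library sizes over all genes, and 0 without the filter or with only 2 groups. For Hoxd13 midgut against midgut 11 passed without the filter or without mitochondrial genes and 26 with only 2 groups. For hindgut against Hoxd13 midgut 33 passed by total counts and 2 without mitochondrial genes.

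In the circumferential muscle the ranges were 0 to 39, 5 to 29 and 2 to 10. DESeq2 gave 2, 10 and 1, and no filter gave 7, 28 and 7. For Hoxd13 midgut against midgut 27 passed by total counts and 38 with only 2 groups. For hindgut against Hoxd13 midgut 29 passed by total counts, 6 without mitochondrial genes and 8 with summed layers. The difference of the hindgut effect between layers was passed by 1 to 4 genes without a sample and by 1 with total counts, and that of the Hoxd13 effect by 0 to 2. Without the filter 1654, 2630 and 106 genes passed for circumferential and longitudinal muscle against mesenchyme and longitudinal against circumferential muscle, and 73 to 129 for the second of these without a sample.

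Whether samples with the same number were paired was examined in the mesenchyme, after the group mean was subtracted from each gene. These deviations correlated by -0.27 to 0.12 over 12 pairs of different groups with the same number, 1 of them over 0.1. By this measure 2 samples correlated best with their own number, so the numbers were not taken as pairs. With the replicate block 143 genes passed for hindgut against midgut in the mesenchyme, 4 in the longitudinal and 7 in the circumferential muscle, 8 passed for hindgut against Hoxd13 midgut in the circumferential muscle, and LTBP1 changed by -0.01 for Hoxd13 midgut against midgut.

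Members changed sign as follows. For Hoxd13 midgut against midgut in the mesenchyme, LTBP1 changed by -0.0081 by DESeq2, -0.0088 by RLE, -0.0091 with the block, -0.015 without mitochondrial genes, -0.024 without the filter, -0.026 with only 2 groups and -0.21 by total counts. By total counts TGFBR2 changed by -0.076 there, and for hindgut against Hoxd13 midgut TGFB2 changed by 0.16, TGFBR2 by 0.15 and TGFBI by 0.16. TGFBI also changed by 0.21 in the circumferential muscle in that comparison and by 0.014 between the muscle layers. With summed layers LTBP1 changed by 0.094 and TGFBI by 0.031 for Hoxd13 midgut against midgut. Without the filter these were 0.070 and 0.094 in the circumferential muscle. Without the filter LTBP1 changed by -0.26, -0.54 and -0.28 in the layer comparisons, FSTL1 by -0.16 and -0.53 in circumferential and longitudinal muscle, FBN1 by -0.41 in longitudinal and SPARC by -0.22 in circumferential muscle.

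Without a sample, the mesenchymal change for hindgut against midgut was -0.17 to 0.0056 for TGFBI and -0.17 to 0.48 for TGFBR2. For Hoxd13 midgut against midgut it was -0.092 to 0.042 for LTBP1, -0.099 to 0.096 for TGFB3, -0.13 to 0.044 for TGFBI and -0.13 to 0.58 for TGFBR2. For hindgut against Hoxd13 midgut it was -0.17 to 0.067 for TGFB2, -0.11 to 0.023 for TGFBI and -0.29 to 0.16 for TGFBR2. In muscle, LTBP1 ranged from -0.024 to 0.97 in the longitudinal and TGFBI from -0.33 to 0.11 in the circumferential layer for Hoxd13 midgut against midgut, and LTBP1 from -0.14 to 0.25 between the muscle layers. The difference of the hindgut effect between layers ranged from -0.19 to 0.090 for LTBP1 and from -0.16 to 0.24 for TGFBI. TGFBR2 in the circumferential muscle differed from the mesenchyme by -6.77 to 0.651 CPM.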
